A study of Mus musculus with 55 samples.

Results

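The genes described here encode the machinery that copies DNA and a small part of the machinery that repairs it. The list held 39 genes, and 38 of them were represented on the array by a probe set annotated to 1 gene. They were read among the 12393 genes with such a probe set. Only Chaf1a, a subunit of the chromatin assembly factor, had none. For each gene the probe set with the highest mean intensity was used. By function, 13 measured genes acted in licensing of replication origins and in the replicative helicase, 8 were subunits of polymerases and primase, 8 belonged to the sliding clamp, the clamp loader and lagging strand maturation, 4 supplied nucleotides, 3 copied chromatin marks or histones, and 2 were repair genes.

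The mRNA of the mouse optic nerve head (ONH), the short stretch where retinal axons gather and leave the eye, was measured on Affymetrix 430A 2.0 arrays. The crushed group held ONHs of left eyes whose optic nerve was crushed for 10 s at 1 mm behind the globe and which were collected at 5 times, namely after 1 day, after 3 days, after 1 week, after 3 weeks and after 3 months. The contralateral group held the right ONHs of the same animals, and the naïve group came from mice without surgery. All were C57Bl/6 females of 6 to 8 weeks at surgery. Each sample pooled 2 ONHs, each of the 11 conditions had 5 samples, and a crushed sample and the contralateral sample with the same number came from the same mice. The 45 arrays of naïve mice and of 1 day to 3 weeks were processed together, whereas the 10 arrays of 3 months formed a second batch and were never tested against the first. Arrays of the first batch had median intensities of 459 to 554, and those of the second batch 494 to 598.

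Before a cell divides, the origin recognition complex, Cdc6 and Cdt1 load the Mcm2 to Mcm7 helicase onto DNA, and Cdc45 and the GINS complex then turn it into an active helicase. Primase and DNA polymerase alpha start each strand, polymerases epsilon and delta extend it on the PCNA clamp, and Fen1 and Lig1 finish the lagging strand. Ribonucleotide reductase, thymidylate synthase and thymidine kinase supply the deoxynucleotides. Many of these genes are transcribed near the entry into S phase through E2F factors. In the healthy adult optic nerve few cells divide, and those that do are mostly glial precursors and microglia.

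Replication genes were higher in the crushed ONH at 1 day and 3 days, and this had largely ended by 3 weeks. At 1 day 24 of 38 genes rose at least 2-fold with an adjusted p below 0.05 in limma, against 7.02% of all 19313 tested probe sets, and 0 fell, against 7.44% of them. At 3 days 28 of 38 rose, against 6.6%, and 0 fell, against 2.2%. At 1 week 6 rose, against 6.21%, and 0 fell, against 3.53%, although 3 were lower by the adjusted p alone (Pold2, Rpa1 and Rpa2). How many of all probe sets passed the adjusted p alone was not counted, at this or any other time. No gene had a negative difference at 1 day or 3 days. At 3 weeks 0 rose and 0 fell, against 2.36% and 1.75% of all probe sets, and at 3 months 0 of 37 rose and 0 fell, against 0.207% and 0.255%. An unadjusted p below 0.05 was found for 6 of 38 genes at 3 weeks, against 6551 of 19313 probe sets. At 3 months it was found for 3 of 37 genes, against 2649 of 18823 probe sets. Both shares were smaller than those over all probe sets. The median log2 fold change of the genes was 1.24 at 1 day, 1.40 at 3 days, 0.45 at 1 week, 0.03 at 3 weeks and −0.04 at 3 months. Over all tested probe sets the medians were −0.03, 0.04, 0.02, 0.00 and −0.02 at the same times.

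All 38 genes had a positive difference at 1 day and at 3 days, although for Pold2, a small subunit of polymerase delta, the value at 3 days was only 0.09 ± 0.08 (SE). The called genes split into few courses. Of the 29 genes called at some time, 17 were called at 1 day and 3 days, 6 at 1 day, 3 days and 1 week, 5 at 3 days alone and 1 at 1 day alone. The 6 with the longest course were Cdt1, Mcm5, Rrm2, Tk1, Chaf1b and Uhrf1. Of these, Mcm5, Chaf1b and Uhrf1 lost the call at 1 week in other settings or with other probe sets, as given below. The 9 genes never called were Mcm4, Orc1, Orc6, Pold2, Pold3, Pcna, Rpa1, Rpa2 and Dnmt1. Without the fold limit, 37 of 38 genes passed the adjusted p at 1 day and 37 at 3 days, so most uncalled genes missed a call through the fold limit only. At an unadjusted p below 0.05 the counts were also 37 and 37, against 11313 and 9281 of all 19313 tested probe sets.

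**Figure D1:**
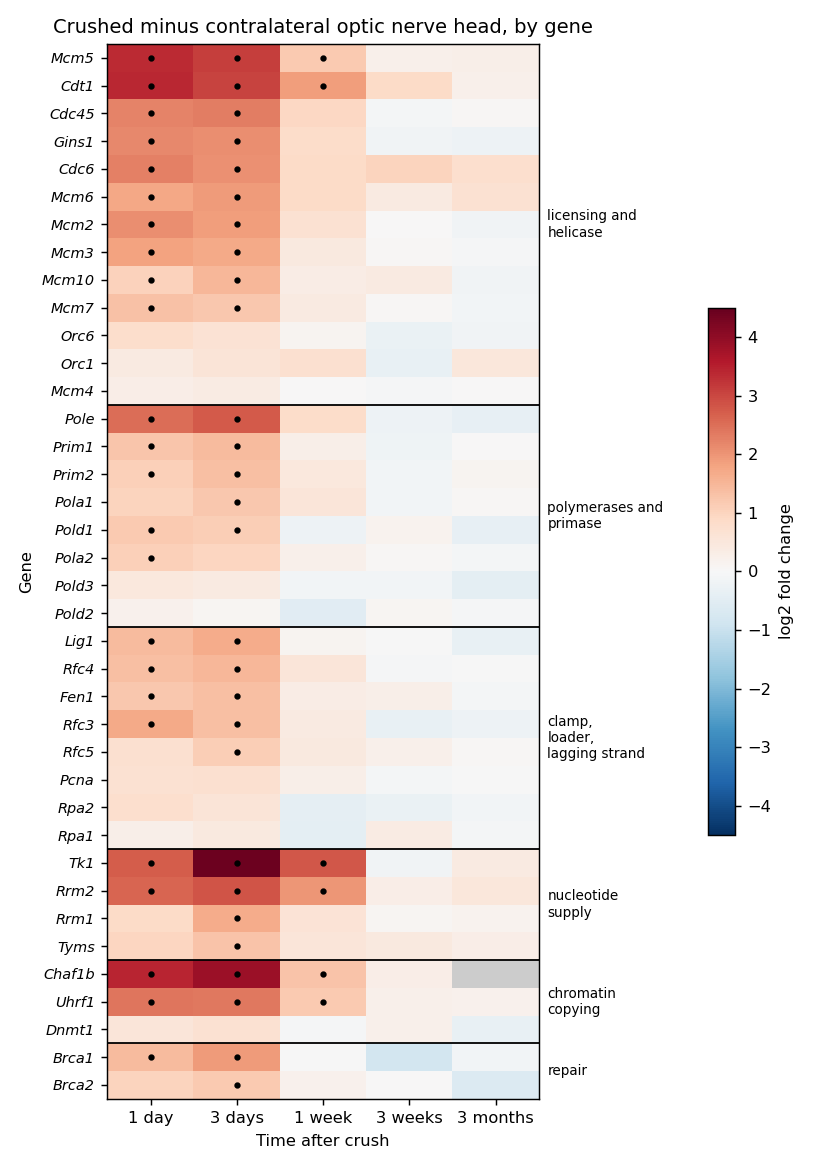
Log2 fold change of the crushed over the contralateral ONH for 38 genes (rows, grouped by role and ordered by the value at 3 days) at 5 times (columns), n = 5 pairs each. Red is higher in the crushed ONH, blue lower, a dot marks a call (adjusted p below 0.05 and at least 2-fold), and grey marks Chaf1b at 3 months, which was not tested; dots fill most of the first 2 columns, 6 cells of the third and none of the last 2.

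One pair stood apart at 1 day. Averaged over the 38 genes, the crushed minus contralateral difference was 1.43, 0.52, 1.76, 2.09 and 1.54 on the log2 scale in pairs 1 to 5 at 1 day. Of the 38 genes, 25 had all 5 crushed samples above all 5 contralateral ones at 1 day, and 37 at 3 days. The share of all probe sets with such a gap was not counted. Every gene given sample by sample here that overlapped at 1 day did so through the crushed sample of pair 2. That pair also had the lowest difference of the axon and ganglion cell markers, −1.66, against −0.17, −0.02, 0.26 and −0.02 in pairs 1, 3, 4 and 5. Its differences of photoreceptor (−2.16), endothelial (−0.52) and oligodendrocyte precursor markers (−1.41) were also the lowest at 1 day. Its difference of T and NK cell markers (1.33) was the highest. A link of these to the replication genes was not tested in this pair. Without pair 2 of 1 day, 28 genes were called at 1 day in place of 24, and the share of all probe sets in that fit was not counted. At 3 days the mean difference lay between 1.32 and 1.97 in the 5 pairs, at 1 week between 0.27 and 0.69, at 3 weeks between −0.03 and 0.12, and at 3 months between −0.27 and 0.12.

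**Figure D2:**
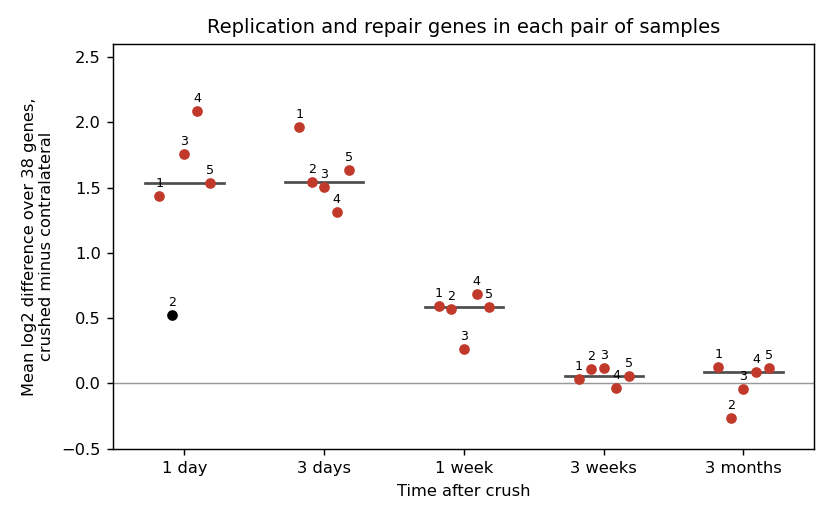
Mean log2 difference over the replication and repair genes, crushed minus contralateral, in each of the 5 pairs of samples at each time (points, numbered by pair; the line is the median of the pairs). The black point is pair 2 at 1 day, at 0.52, below the other 4 pairs of that time, which lie between 1.43 and 2.09.

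The tissue is a mixture, and several marker lists of its cells differed too. Of 12 microglia and macrophage markers, 3 were called higher and 1 lower at 1 day, 5 higher at 3 days, 6 higher at 1 week and 2 higher at 3 weeks. Their summed intensity lay between 41877 and 59092 in crushed and between 40028 and 43980 in contralateral samples at 1 day, and between 59662 and 70356 in crushed and between 36400 and 44634 in contralateral samples at 3 days. The summed neutrophil markers reached 9443 to 18525 in crushed against 531 to 899 in contralateral samples at 1 day, and 1405 to 10929 against 442 to 644 at 3 days, when Ngp of these 7 markers was at the floor in all crushed samples. None of the 9 astrocyte markers was at the floor throughout a group, and 0 were called higher at any time, with 3 lower at 1 day. Of 8 oligodendrocyte markers 4 were lower at 1 day and 2 at 3 days, and of 5 precursor markers 2 and 1. Oligodendrocyte markers still had a lower mean in all 5 pairs at 1 week and 3 weeks (median log2 differences −1.04 and −1.01). Axon and ganglion cell markers had a lower mean in all 5 pairs from 3 days on. Their median log2 difference was −0.9 at 3 days, −2.82 at 1 week, −2.26 at 3 weeks and −3.96 at 3 months. Of 8 T and NK cell markers 2 were higher at 1 day, 2 at 3 days and 5 at 1 week, and their mean was higher in 5 of 5 pairs at 3 weeks (median 1.29). Endothelial markers had a higher mean in 5 of 5 pairs at 3 days, with 1 of 7 called and sums of 19013 to 29587 in crushed against 13559 to 18307 in contralateral samples. The means of B cell markers (2 of 3 tested markers called, Pax5 at the floor) and of meningeal fibroblast markers (0 of 6 called) were also higher in 5 of 5 pairs at 3 days. At 1 day pericyte and smooth muscle markers were lower in 5 of 5 pairs, with 2 of 5 called and sums of 8562 to 16359 in crushed against 22192 to 27856 in contralateral samples, and meningeal fibroblast markers were lower in 5 of 5 pairs with 0 called. The photoreceptor markers, a sign of retina in the dissection, differed between the samples of a pair by −2.16 to 5.56 at 1 day and by −3.97 to 4.45 at 3 days. With their level as a covariate 22 genes were called at 1 day and 28 at 3 days. The share of all probe sets called in that fit was not counted. The part of the other lists in the results was not tested, and in pooled tissue more cells of a kind and more RNA per cell cannot be told apart.

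Licensing and helicase genes were the group with the most calls at 1 day. Of 13 genes 10 rose at 1 day, 10 at 3 days, 2 at 1 week and 0 later. Their median log2 fold change was 1.82 at 1 day, 1.86 at 3 days and 0.72 at 1 week. Cdt1 loads the helicase onto origins and is destroyed once S phase starts. Its intensity was 1419, 922, 1676, 1999 and 1668 in the crushed samples of pairs 1 to 5 at 1 day, against 122, 157, 128, 136 and 172 in the contralateral samples. The lowest crushed sample was far above the highest contralateral one, and the difference was 10.5-fold (log2 3.39 ± 0.21 SE, adjusted p = 1.17e-10). At 3 days Cdt1 read 1406, 1412, 1083, 1098 and 1200 in crushed and 128, 202, 101, 148 and 185 in contralateral samples. At 1 week the crushed samples held 747, 514, 560, 1252 and 683, against 193, 178, 301, 218 and 121 in the contralateral ones. The groups stayed apart at both times, with log2 fold changes of 3.06 and 1.88.

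Mcm5, a subunit of the helicase ring, changed about as much. It read 710, 290, 1040, 1178 and 828 in crushed against 81.4, 99.6, 48.2, 62.9 and 71.7 in contralateral samples at 1 day (log2 3.37 ± 0.29 SE, adjusted p = 8.2e-09). At 3 days it read 1141, 869, 690, 659 and 986 in crushed against 113, 111, 76.6, 112 and 86.8 in contralateral samples. No value of the crushed group reached down to the contralateral group. At 1 week the log2 fold change was 1.17 ± 0.29, and without pair 4 of that time it was 0.99 and no longer a call. Cdc45, which with GINS makes the helicase active, read 325, 180, 537, 572 and 520 in crushed against 84.0, 91.0, 91.9, 70.2 and 85.3 in contralateral samples at 1 day, and 853, 559, 476, 458 and 547 against 106, 123, 135, 99.9 and 114 at 3 days. All crushed samples were again above all contralateral ones, with log2 fold changes of 2.22 ± 0.23 and 2.29 ± 0.23 (adjusted p = 7.67e-08 and 1.08e-07).

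The other subunits of the helicase did not change by equal amounts. At 3 days the log2 fold change was 1.86 for Mcm2, 1.69 for Mcm3, 1.93 for Mcm6 and 1.21 for Mcm7, each called, and 0.36 for Mcm4. Mcm4 was already bright. It read 3904, 3057, 4256, 4374 and 3994 in crushed against 3232, 3230, 3009, 3146 and 3256 in contralateral samples at 1 day, and 4279, 4188, 4083, 4240 and 3555 against 3102, 3110, 3072, 3142 and 3411 at 3 days. Pair 2 overlapped at 1 day and no sample did at 3 days, so that the difference was small but passed the adjusted p of 0.00061 at 3 days. Cdc6, the loading partner of Cdt1, was called at 1 day (2.27 ± 0.27) and 3 days (2.05 ± 0.27), and Gins1, of the GINS complex, at 1 day (2.16 ± 0.21) and 3 days (2.09 ± 0.21). Mcm10, which acts as the fork starts, was called at 1 day (1.03 ± 0.24) and 3 days (1.49 ± 0.24). Orc1 and Orc6, the subunits of the origin recognition complex among the 38 genes, stayed below 2-fold. Orc6 had log2 fold changes of 0.78 at 1 day and 0.66 at 3 days, and Orc1 of 0.40, 0.57 and 0.72 at 1 day, 3 days and 1 week. Orc1 was the only one of the 38 genes whose difference was highest at 1 week, but its probe set was dim.

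Because these genes moved together, the bases around their start sites are shown for the genes with the strongest change of each role. The windows run from 250 bases before to 50 bases after the annotated start (RefSeq, GRCm38.p6), and 34 of the 38 genes had at least 1. An E2F motif was taken as TTTCCCGC, TTTGGCGC, TTTCGCGC or TTTGCCGC on either strand. It was found in a window of 15 of 34 genes (44.1%), against 704 of 27025 genes in the whole table (2.6%). It was found in 12 of 26 called genes (46.2%) and in 3 of 8 uncalled ones (37.5%), namely Orc1, Pold3 and Dnmt1. The letters CCAAT on either strand were in a window of 21 of 34 genes (61.8%), against 41.1% of all genes, and TTTGAA, which marks many later cell cycle genes, in a window of 5 of 34 genes (14.7%), against 20.2%. Matches are only letters in a window, not sites. The windows of Cdt1 (chr8:122567765-122568064, plus strand), Mcm5 (chr8:75109259-75109558, plus strand) and Mcm6 (chr1:128359656-128359955, minus strand) follow 5′ to 3′ on the strand of the gene, with E2F matches in capitals. Mcm5 and Mcm6 were added after the values were seen, because their matches overlap. In Mcm5 2 matches begin at −153 and −149 from the start, and in Mcm6 matches begin at −110, −106 and −47.
Cdt1: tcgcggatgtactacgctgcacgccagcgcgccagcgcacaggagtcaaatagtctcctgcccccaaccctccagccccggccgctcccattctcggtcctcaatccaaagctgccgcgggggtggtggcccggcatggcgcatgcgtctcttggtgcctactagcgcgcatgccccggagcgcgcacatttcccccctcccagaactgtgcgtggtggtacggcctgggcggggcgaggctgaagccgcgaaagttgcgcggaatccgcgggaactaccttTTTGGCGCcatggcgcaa
Mcm5: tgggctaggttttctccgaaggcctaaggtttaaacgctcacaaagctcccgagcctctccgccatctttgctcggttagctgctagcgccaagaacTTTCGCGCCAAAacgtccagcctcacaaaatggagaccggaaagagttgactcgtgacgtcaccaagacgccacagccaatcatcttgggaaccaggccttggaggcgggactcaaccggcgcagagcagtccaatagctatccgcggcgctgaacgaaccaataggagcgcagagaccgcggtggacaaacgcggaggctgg
Mcm6: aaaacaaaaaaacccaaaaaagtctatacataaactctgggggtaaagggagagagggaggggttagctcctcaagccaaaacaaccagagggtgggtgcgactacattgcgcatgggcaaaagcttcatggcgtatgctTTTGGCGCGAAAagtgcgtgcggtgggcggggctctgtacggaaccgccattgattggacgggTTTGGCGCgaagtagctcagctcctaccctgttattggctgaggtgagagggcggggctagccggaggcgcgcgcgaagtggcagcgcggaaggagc

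Polymerase and primase genes changed less than the licensing genes. Of 8 genes 5 rose at 1 day, 5 at 3 days and 0 later, and the median log2 fold change was 1.07, 1.15 and 0.24 at 1 day, 3 days and 1 week. Pole, the catalytic subunit of the leading strand polymerase epsilon, had the largest change. It read 306, 48.4, 612, 692 and 392.2 in crushed against 57, 44.6, 62.5, 37.9 and 69.4 in contralateral samples at 1 day, and 596, 680, 467, 436 and 610 against 72.9, 92.6, 58.4, 94.3 and 89.7 at 3 days. Only the crushed sample of pair 2 fell among the contralateral values at 1 day, and there was no overlap at 3 days. The log2 fold changes were 2.51 ± 0.35 and 2.78 ± 0.35 (adjusted p = 4.65e-06 and 2.71e-06).

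Prim1, the primase subunit that lays down the RNA primer, read 1541, 675, 2216, 2267 and 1702 in crushed against 655, 688, 638, 581 and 682 in contralateral samples at 1 day. At 3 days it read 2743, 2059, 1452, 1326 and 2172 in crushed against 732, 689, 687, 657 and 718 in contralateral samples. Pair 2 overlapped once more at 1 day, and the log2 fold changes were 1.26 ± 0.20 and 1.44 ± 0.20. Its larger partner Prim2 followed with 1.06 and 1.34. Pola1, the catalytic subunit of polymerase alpha, was called at 3 days (1.21), and Pola2, its accessory subunit, at 1 day (1.07) but not at 3 days (0.97). The test of the change between these times gave no call for either. In polymerase delta the catalytic subunit Pold1 was called at 1 day (1.17 ± 0.24) and 3 days (1.09 ± 0.24), and the accessory subunits Pold2 and Pold3 at no time.

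Pold3 read 1226, 972, 1313, 1487 and 1277 in crushed against 825, 981, 823, 933 and 877 in contralateral samples at 1 day, and 1416, 1293, 1167, 1160 and 1092 against 922, 941, 1015, 899 and 823 at 3 days. Crushed samples were higher apart from pair 2 at 1 day, by 0.49 ± 0.11 and 0.41 ± 0.11 on the log2 scale. Pold2 was lower at 1 week, by 0.51 on the log2 scale (−0.51 ± 0.08, adjusted p = 6.4e-05), with all crushed samples below all contralateral ones, but short of the 2-fold limit. No E2F match lies in the window of Prim1 (chr10:128014965-128015264, plus strand), and Pole had no window in the table.
Prim1: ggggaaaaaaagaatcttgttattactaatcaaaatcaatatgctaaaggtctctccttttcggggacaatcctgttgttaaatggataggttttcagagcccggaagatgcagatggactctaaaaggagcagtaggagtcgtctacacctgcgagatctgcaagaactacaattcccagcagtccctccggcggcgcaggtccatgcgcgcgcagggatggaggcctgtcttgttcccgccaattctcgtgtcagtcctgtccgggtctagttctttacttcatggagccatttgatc

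In the clamp and lagging strand group 4 of 8 genes rose at 1 day, 5 at 3 days and 0 later, with medians of 0.99, 1.22 and 0.30 at 1 day, 3 days and 1 week. Rfc3, a subunit of the clamp loader, read 775, 459, 1173, 1213 and 948 in crushed against 304, 292, 236, 262 and 232 in contralateral samples at 1 day. At 3 days it read 1231, 753, 654, 618 and 693 in crushed against 253, 398, 347, 280 and 252 in contralateral samples. The groups did not overlap at either time, and the log2 fold changes were 1.71 ± 0.21 and 1.34 ± 0.21 (adjusted p = 8.77e-07 and 3.33e-05). Of the other loader subunits, Rfc4 was called at both times (1.37 and 1.51), and Rfc5 had 0.72 at 1 day and was called at 3 days (1.10).

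Lig1, the ligase that seals the lagging strand, read 954, 559, 1659, 1812 and 1488 in crushed against 445, 450, 484, 393 and 431 in contralateral samples at 1 day, and 1922, 1823, 1440, 1346 and 1971 against 527, 574, 474, 563 and 523 at 3 days. All crushed samples were above all contralateral ones, by 1.44 ± 0.20 and 1.66 ± 0.20 on the log2 scale. Fen1, the nuclease that removes primers, was called with 1.22 ± 0.12 and 1.37 ± 0.12. Pcna, the clamp, stayed below 2-fold but was very even. It read 6401, 5754, 7043, 7552 and 6466 in crushed against 4194, 4250, 4423, 3928 and 3920 in contralateral samples at 1 day, which is a log2 fold change of 0.68 ± 0.07 with an adjusted p of 1.7e-07. Its groups were far apart relative to their spread, although it is named here after its values were seen.

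Rpa1, the large subunit of the single-strand binding protein, moved least of this group. It read 3255, 2350, 4114, 3860 and 3312 in crushed against 2817, 2900, 2705, 2570 and 2834 in contralateral samples at 1 day, and 2141, 2321, 2670, 2710 and 2402 against 3366, 3083, 3744, 3920 and 2576 at 1 week. The groups overlapped at both times. The log2 difference was 0.26 ± 0.11 at 1 day and 0.42 ± 0.11 at 3 days, then −0.44 ± 0.11 at 1 week, and 0.36 ± 0.11 after 3 weeks, so the sign differed between times, and each value passed the adjusted p without reaching 2-fold. Its partner Rpa2 had 0.76, 0.57, −0.39 and −0.28 at 1 day, 3 days, 1 week and 3 weeks. The window of Rfc3 (chr5:151651159-151651458, minus strand) holds E2F matches that begin at −10 and 1 from the start.
Rfc3: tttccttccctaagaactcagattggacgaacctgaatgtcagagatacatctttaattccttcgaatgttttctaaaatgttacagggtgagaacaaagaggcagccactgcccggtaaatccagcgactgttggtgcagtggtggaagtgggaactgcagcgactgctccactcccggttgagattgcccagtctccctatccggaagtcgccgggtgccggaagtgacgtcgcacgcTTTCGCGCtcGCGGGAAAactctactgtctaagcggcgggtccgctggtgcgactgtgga

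The nucleotide supply genes gave the highest median at 1 week. Of 4 genes 2 rose at 1 day, 4 at 3 days and 2 at 1 week, and the medians were 1.79, 2.25 and 1.30. All 4 had their largest difference at 3 days. Tk1, the thymidine kinase of dividing cells, had the largest change of all 38 genes. It read 235, 63.9, 416, 441 and 299 in crushed against 36.0, 33.8, 55.8, 20.1 and 50 in contralateral samples at 1 day. At 3 days the crushed samples held 2594, 1741, 1488, 1194 and 1868, against 87.5, 112, 76.2, 80.7 and 58.7 in the contralateral ones, and at 1 week 434, 518, 454, 424 and 450, against 32.7, 65.2, 110.5, 53.6 and 94.9. The groups were apart at all 3 times. The difference was 6.56-fold at 1 day, 21.1-fold at 3 days and 6.96-fold at 1 week (log2 2.71, 4.40 and 2.80, each ± 0.32 SE, adjusted p = 4.68e-07, 1.2e-09 and 7.58e-07), and it was −0.16 ± 0.32 on the log2 scale at 3 weeks.

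Rrm2, the regulated subunit of ribonucleotide reductase, read 3289, 1530, 3978, 4117 and 4014 in crushed against 345, 707, 543, 468 and 610 in contralateral samples at 1 day. It read 6330, 6992, 6485, 5990 and 5573 in crushed against 705, 932, 612, 1052 and 1243 in contralateral samples at 3 days, and 3523, 3354, 3439, 3117 and 3833 against 594, 915, 860, 1097 and 994 at 1 week. No sample overlapped at these times, and the log2 fold changes were 2.62, 2.83 and 1.98, each ± 0.23. Rrm1, the large subunit of the same enzyme, was below 2-fold at 1 day (0.87 ± 0.16) and called at 3 days (1.67 ± 0.16). Tyms, thymidylate synthase, did likewise with 0.97 ± 0.25 and 1.27 ± 0.25, but its probe set was dim, with 27 to 56 in contralateral samples at 1 day and 26.6 to 40.7 at 3 days, near the floor of 20. The window of Tk1 (chr11:117825965-117826264, minus strand) has no match to the E2F letters searched.
Tk1: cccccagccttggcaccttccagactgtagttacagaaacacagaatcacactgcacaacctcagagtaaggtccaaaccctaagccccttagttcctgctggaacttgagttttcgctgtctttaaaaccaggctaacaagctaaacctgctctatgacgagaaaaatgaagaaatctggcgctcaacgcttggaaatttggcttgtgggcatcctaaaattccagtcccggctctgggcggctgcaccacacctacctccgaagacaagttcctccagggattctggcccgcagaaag

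Of the 3 measured chromatin copying genes 2 rose at 1 day, 3 days and 1 week. Chaf1b, a subunit of the factor that places histones on new DNA, read 223, 97.8, 387, 444 and 319 in crushed against 27, 18, 32.3, 21.4 and 22.1 in contralateral samples at 1 day, and 632, 336, 258, 211 and 417 against 27.9, 29, 23.3, 11 and 17.7 at 3 days. All crushed samples lay above all contralateral ones, with log2 fold changes of 3.43 ± 0.29 and 3.86 ± 0.29. Chaf1b passed the intensity filter only through its crushed samples, so the gap between its groups is no separate support for its rise. Without that filter its calls stayed. Because several contralateral values lay at or under the floor of 20, the size of its change depends on that floor. At 1 week it was 1.27 ± 0.29, and 0.68 with a floor of 50 or 0.96 with 16 added to each intensity, both below 2-fold.

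Uhrf1, which brings the maintenance methylase to new DNA, read 4368, 2506, 5463, 5912 and 5078 in crushed against 660, 876, 932, 864 and 935 in contralateral samples at 1 day, and 5614, 5490, 5005, 4506 and 4857 against 976, 993, 815, 978 and 1205 at 3 days. It had the smallest adjusted p of the 38 genes at 1 day (log2 2.40 ± 0.14, 4.79e-11) and at 3 days (2.37 ± 0.14, 4.73e-11), and no samples overlapped. Dnmt1, that maintenance methylase, was bright in all groups and read 4144, 3340, 4962, 5005 and 4031 in crushed against 3017, 3040, 2761, 2826 and 2885 in contralateral samples at 1 day. At 3 days it read 5182, 4889, 5027, 4676 and 5326 in crushed against 3096, 3146, 3208, 3053 and 3102 in contralateral samples. The groups were apart at both times, but the log2 differences of 0.55 ± 0.12 and 0.68 ± 0.12 were below the 2-fold limit. The window of Chaf1b (chr16:93883651-93883950, plus strand) holds no match to the E2F letters.
Chaf1b: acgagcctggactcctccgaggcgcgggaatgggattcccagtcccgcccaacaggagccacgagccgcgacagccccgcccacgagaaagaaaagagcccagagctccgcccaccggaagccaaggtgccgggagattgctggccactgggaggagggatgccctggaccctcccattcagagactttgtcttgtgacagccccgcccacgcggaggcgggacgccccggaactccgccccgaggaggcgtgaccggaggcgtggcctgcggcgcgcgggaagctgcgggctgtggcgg

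The 2 repair genes act in homologous recombination. Brca1 rose at 1 day and 3 days and Brca2 at 3 days. Brca1 read 278, 107, 552, 761 and 515 in crushed against 119, 113, 88.0, 149 and 270 in contralateral samples at 1 day, and 1027, 715, 843, 664 and 876 against 177, 231, 274, 130 and 342 at 3 days. At 1 day samples overlapped, whereas at 3 days all crushed samples were higher, with log2 fold changes of 1.42 ± 0.29 and 1.90 ± 0.29 (adjusted p = 0.000308 and 2.51e-05). With the mean of its probe sets the value at 1 day was 0.94 and no call. Brca1 was the only gene of the 38 that passed the adjusted p with a lower value at 3 weeks. It read 317, 125, 110.5, 92.4 and 165 in crushed against 547, 376, 123, 223 and 221 in contralateral samples then, lower in 5 of 5 pairs but with overlapping groups, a log2 difference of −0.84 ± 0.29 that is below 2-fold (adjusted p = 0.04).

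Brca2 read 159, 90, 267, 304 and 197 in crushed against 90.3, 101, 101, 80.9 and 98.4 in contralateral samples at 1 day, and 303, 283, 214, 214 and 247 against 77.8, 137, 147, 92.9 and 112 at 3 days. Pair 2 overlapped at 1 day and none at 3 days. The log2 fold changes were 0.99 ± 0.24 and 1.18 ± 0.24, and without pair 1 of 3 days the value at 3 days was 0.98 and no longer a call, nor was it under quantile normalization (0.998). No E2F match was found in the window of Brca1 (chr11:101551906-101552205, minus strand).
Brca1: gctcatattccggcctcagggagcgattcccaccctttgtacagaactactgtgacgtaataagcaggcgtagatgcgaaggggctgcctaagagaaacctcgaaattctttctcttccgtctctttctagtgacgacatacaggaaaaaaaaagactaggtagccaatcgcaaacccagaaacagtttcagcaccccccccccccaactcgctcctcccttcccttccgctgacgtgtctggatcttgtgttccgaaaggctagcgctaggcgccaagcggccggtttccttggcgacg

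**Figure D3:**
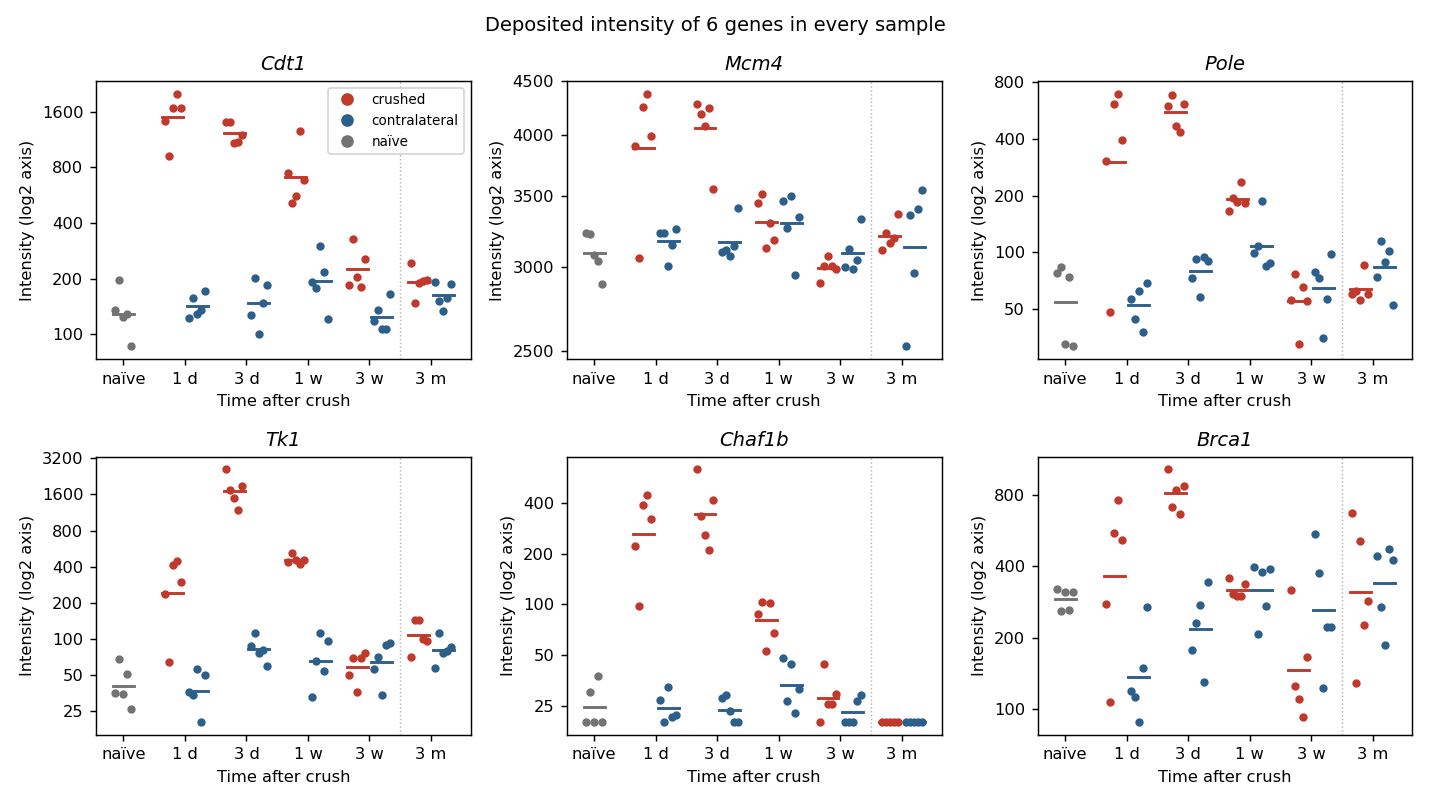
Intensity of 6 genes in each sample (points; log2 axis, values under 20 drawn at 20) with the geometric mean of each group after the floor of 20 (bars), for naïve samples and for crushed (red) and contralateral (blue) samples at 5 times, n = 5 each; the dotted line separates the second batch. Cdt1, Pole, Tk1 and Chaf1b separate clearly at 3 days, Mcm4 differs by a small but even amount, and Brca1 crushed values at 3 weeks lie low.

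Few crush effects differed between 1 day and 3 days. Of 38 genes 1 had a larger effect at 3 days, against 3.9% of all probe sets, and 0 had a smaller one, against 1.03%. The gene was Tk1, with a change of 1.69 ± 0.45 (adjusted p = 0.0141), and it was not a call in the fits without replicate 1 or without replicate 5 of every time. Rrm1 passed the adjusted p with 0.79 ± 0.23 but not the 2-fold limit. Between 3 days and 1 week the effect became smaller for 18 genes, against 2.04%, and larger for 0, against 1.08%, and the median change was −0.999, against −0.05 over all probe sets. The largest were Chaf1b (−2.59 ± 0.41), Pole (−1.96 ± 0.49), Mcm5 (−1.94 ± 0.41), Brca1 (−1.90 ± 0.41), Tk1 (−1.60 ± 0.45) and Lig1 (−1.53 ± 0.28). The 18 were 8 of 13 licensing genes, 3 of 8 polymerase genes, 2 of 8 clamp and lagging strand genes, 2 of 4 nucleotide genes, 2 of 3 chromatin genes and 1 of 2 repair genes. This count depended on which pairs were used. It was 11 without pair 3 of 1 week, a fit for which the share of all probe sets was not counted. The other fits left out 1 replicate number, and so a pair, at every time. Without number 1 the count was 3, when 0.734% of all probe sets were called smaller, and without number 3 it was 8, when 1.08% were. It was 20 without number 2 (1.81%), 20 without number 4 (2.13%) and 14 without number 5 (1.91%).

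Between 1 week and 3 weeks the effect became smaller for 5 genes, against 3.1% of all probe sets, and larger for 0, against 1.4%. They were Tk1 (−2.96 ± 0.45), Rrm2 (−1.67 ± 0.33), Orc1 (−1.06 ± 0.29), Cdt1 (−1.03 ± 0.29) and Cdc45 (−1.02 ± 0.32), of which Tk1, Rrm2 and Cdt1 were still called at 1 week. The count was 2 without pair 1 of 1 week, 3 without pair 4 of 1 week, and 3 without pair 1 or pair 3 of 3 weeks. By role, the time of the largest difference was 1 day for 8 of 13 licensing genes, 4 of 8 polymerase genes, 2 of 8 clamp and lagging strand genes, 0 of 4 nucleotide genes, 1 of 3 chromatin genes and 0 of 2 repair genes. For most other genes it was 3 days. Since Tk1 alone was called between these times, the order is a description.

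**Figure D4:**
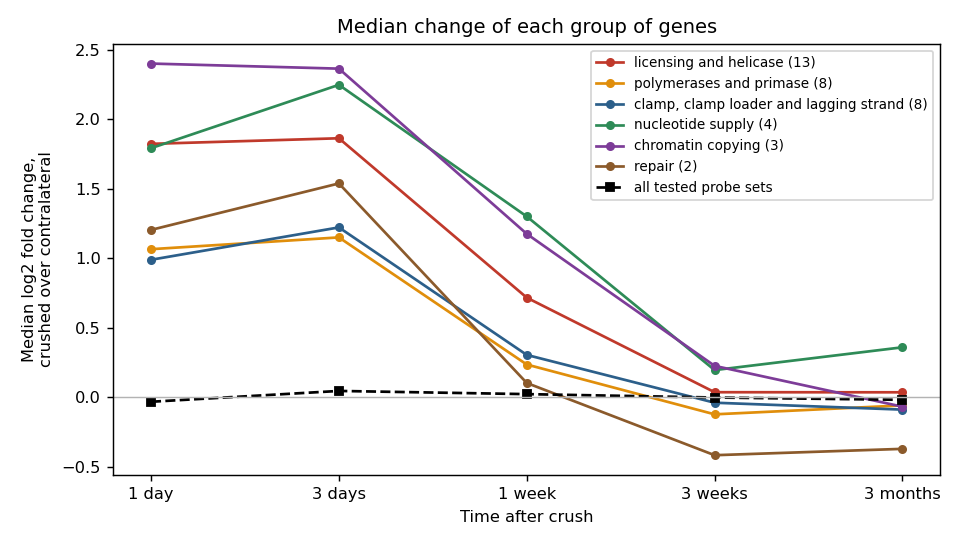
Median log2 fold change of the crushed over the contralateral ONH at 5 times for 6 groups of genes (number of genes in parentheses; 2 of the 3 chromatin genes at 3 months) and for all tested probe sets (dashed), which stay near 0. Nucleotide supply and chromatin copying genes have the highest medians at 3 days, 2.25 and 2.37, and polymerase genes the lowest, 1.15.

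At 3 weeks and 3 months the calls had ended. At 3 weeks 6 genes had an unadjusted p below 0.05 and 4 an adjusted one, namely Cdt1 (0.85 ± 0.21), Cdc6 (1.00 ± 0.27), Rpa1 (0.36 ± 0.11) and, in the lower direction, Brca1. Since the share of all probe sets that passed the adjusted p was not counted, these 4 cannot be set against it. Cdc6 was just under the 2-fold limit, at 1.996-fold. Cdt1 read 185, 328, 205, 181 and 255 in crushed against 118, 136, 107, 106 and 165 in contralateral samples, which do not overlap. In the fits without pair 2 or without pair 5 of 3 weeks 1 gene was called higher, and without pair 3 of that time 1 was called lower. At 3 months 3 genes had an unadjusted p below 0.05 and 0 an adjusted one. The largest difference was that of Cdc6 (0.74 ± 0.23), which read 225, 181, 181, 201 and 212 in crushed against 77.3, 119, 111, 147 and 162 in contralateral samples, with no overlap and an adjusted p of 0.234. Its samples are given here after their values were seen. Mcm6 had 0.67 ± 0.22 with an adjusted p of 0.258, and its samples did not overlap. Chaf1b had intensities of 1.00 to 5.05 in crushed and 1.00 to 3.84 in contralateral samples at 3 months and was not tested there.

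The contralateral ONH was set against the naïve one to see whether the uninjured side moved. Of 37 genes 0 were called at 1 day, 3 days, 1 week or 3 weeks, against 0%, 0%, 0.112% and 0.691% of 18669 probe sets. Chaf1b did not pass the intensity filter in these samples and was not tested. An unadjusted p below 0.05 was reached by 1, 3, 10 and 7 genes at these times, against 1268, 1036, 2689 and 5171 probe sets. The share of genes was the smaller one at 1 day and 3 weeks and the larger one at 3 days and 1 week. An adjusted p below 0.05 was reached by 0, 0, 0 and 2 genes, Rfc4 (0.40 ± 0.12) and Rpa2 (−0.28 ± 0.08) at 3 weeks, and the share of all probe sets was not counted. At 1 week 34 of 37 differences were positive, with a median of 0.16 against 0.05 over all probe sets. Only Pole and Prim1 did not overlap there, and the share of all probe sets without overlap was not counted. Prim1 read 789, 783, 890, 826 and 812 in contralateral samples against 699, 606, 603, 680 and 637 in naïve samples (0.35 ± 0.09, adjusted p = 0.0624). Tk1 had the largest positive difference, 1.01 ± 0.34 at 3 days with an adjusted p of 0.722, and Brca1 the largest negative one, −1.09 ± 0.33 at 1 day with an adjusted p of 0.521.

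For 22 genes more than 1 probe set was tested, and no gene had calls in opposite directions. At 3 days the probe sets of Rrm2 and Uhrf1 differed by more than 1 on the log2 scale. Rrm2 gave 2.83 with the brightest probe set and 4.30 and 3.82 with the dimmer ones, and Uhrf1 gave 2.37 with the brighter and 1.11 with the dimmer one, which at 1 week gave 0.25 and no call. The mean of both Uhrf1 probe sets was 0.71 at 1 week, also no call. A probe set other than the one used gave a call where the one used did not for 2 genes at 1 day and 1 at 1 week. One of them was Tyms, whose dimmer probe set gave 1.56 at 1 day and 1.23 at 1 week, against 0.97 and 0.54. The 4 probe sets of Mcm7 gave 1.31 to 2.06 at 1 day, all called.

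Other genes of the same pathways, from lists that hold none of the 38, were read in the same way. Of 123 tested genes 27 rose at 1 day, 30 at 3 days, 15 at 1 week and 0 later. Of all probe sets 7.02%, 6.6% and 6.21% rose at the first 3 times, 2.36% at 3 weeks and 0.207% at 3 months. At 1 day 1 of the genes fell, against 7.44% of all probe sets. Their median was 0.40, 0.39 and 0.17 at the first 3 times. Among 28 origin and fork genes 9 rose at 1 day, 10 at 3 days and 6 at 1 week, led by Dtl (4.51 ± 0.30 at 1 day), which marks Cdt1 for destruction, Top2a (3.34 ± 0.25 at 3 days), which untangles copied DNA, and Chtf18 (3.52 ± 0.36 at 3 days), of an alternative clamp loader. Among 14 further nucleotide genes only Dut (1.53 ± 0.16 at 3 days), which removes dUTP, and Umps (1.57 ± 0.14 at 1 day), of pyrimidine synthesis, rose. Among 9 chromatin genes 4 rose at 1 day, 5 at 3 days and 3 at 1 week, with the centromere histone Cenpa at 4.30 ± 0.18 and the histone chaperone Asf1b at 3.68 ± 0.30 at 3 days, and the chromatin remodeller Hells at 3.29 ± 0.23 at 1 day.

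The lists of this paragraph are read against the 7.02%, 6.6% and 6.21% of all probe sets called higher at 1 day, 3 days and 1 week. For genes that fell at 1 day the share was 7.44%. The first lists hold repair genes outside replication. Of 22 base and nucleotide excision repair genes 1 rose at 1 day, 2 at 3 days and 1 at 1 week, with medians of 0.03, 0.15 and 0.01. They were Ung (1.89 ± 0.15 at 1 day), which removes uracil, and Neil3 (3.30 ± 0.23 at 3 days), a glycosylase of dividing cells. Of 5 mismatch repair genes 1 rose, the exonuclease Exo1 (3.12 ± 0.28 at 1 day and 3.76 ± 0.28 at 3 days). Of 19 recombination and end joining genes 5 rose at 1 day, 4 at 3 days and 1 at 1 week, among them Rad54l (2.04 ± 0.21 at 3 days), a motor protein of homologous recombination. Among 14 checkpoint kinases and p53 targets 3 rose and 1 fell at 1 day. The checkpoint kinase Chek1 (3.17 ± 0.23), Gadd45g (2.65 ± 0.21) and the cell cycle inhibitor Cdkn1a (1.94 ± 0.17) rose, and Sesn1 (−1.25 ± 0.10) fell. Of 12 E2F factors and their partners 2 rose at 1 day, 4 at 3 days and 2 at 1 week. They were E2f1 (2.50 ± 0.29 at 1 day), E2f8 (3.93 ± 0.30 at 3 days), E2f3 (1.10 ± 0.27 at 3 days) and Foxm1 (3.07 ± 0.25 at 3 days), a factor of later cell cycle genes.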

How the data were processed

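ONH RNA was amplified with NuGEN kits and hybridised to 55 arrays. The authors made the deposited intensities in DChip, with invariant set normalization and the PM/MM difference model, separately for the 2 batches. No per-sample column was left unused, and 64 control probe sets were left out of 22690. Here the deposited linear intensities were raised to a floor of 20, which touched 9.9% of values, and taken to log2. Probe sets that reached 50 on at least 5 arrays of a model were tested with limma 3.58.1 in R 4.3.3 (lmFit, eBayes with an intensity trend), with the pair as a block and a crush term per time for the 40 arrays of 1 day to 3 weeks. Contrasts of the crush terms tested neighbouring times. The 10 arrays of 3 months were fitted alone, and the 25 arrays of contralateral and naïve samples without pairing. P-values were adjusted by Benjamini-Hochberg over all probe sets of a comparison. A call needed an adjusted p below 0.05 and 2-fold. The scripts were tested on simulated data. Genes came from the platform annotation, in which 20380 probe sets had 1 symbol, 691 several and 1555 none.

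The members, the lists and the tests were chosen with earlier results of these data known. Named members are those with the largest fold change of each role (3 in licensing, 2 in each other role) and the uncalled member of each role that changed least, by its largest value at any time. Of other lists up to 3 called genes with the largest changes are named in each, with 1 more for the E2F and the checkpoint lists, added after the values were seen, and only 1 for recombination, where genes with larger changes are not reported here. Pairing rests on the same mice. Deviations of paired samples from their group means correlated with a median of −0.0529 (−0.454 to 0.544, 8 of 25 pairs over 0.1). The number of arrays limits the precision.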

Additional observations from a re-analysis of the deposited data

Results flagged for a closer look

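Among the 17 genes named by rule (Pcna and Cdc6, given for 1 time each, were not included), 11 of 187 groups of 5 samples held a sample far from the others by Dixon's ratio, and chance gives about 1 in 20. In crushed samples these were Mcm4 at 3 days in pair 5 (3555, the next at 4083), Pole at 3 months in pair 4 (85.4, the next at 62.3), Rfc3 at 3 days in pair 1 (1231, the next at 753), Rfc3 at 1 week in pair 3 (350, the next at 430) and Rrm2 at 1 day in pair 2 (1530, the next at 3289). In contralateral samples they were Mcm4 at 3 days in pair 5 (3411), Prim1 at 3 weeks in pair 5 (932), Lig1 at 1 week in pair 5 (398), Uhrf1 at 1 day in pair 1 (660) and Dnmt1 at 1 week in pair 5 (1741). Among naïve samples Dnmt1 of replicate 5 stood low (1733).

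The following counts came from tests of a difference between times: 1 gene with a larger crush effect at 3 days than at 1 day, 18 with a smaller one at 1 week than at 3 days, and 5 with a smaller one at 3 weeks than at 1 week. Tk1 appeared in each, with 1.69, −1.60 and −2.96 on the log2 scale. From 3 days to 1 week the changes were −1.19 for Uhrf1, −1.94 for Mcm5, −1.35 for Cdc45, −1.53 for Lig1, −2.59 for Chaf1b, −1.18 for Cdt1, −1.90 for Brca1, −1.96 for Pole and −1.18 for Prim1. From 1 week to 3 weeks they were −1.02 for Cdc45, −1.03 for Cdt1 and −1.67 for Rrm2.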

How the results depend on the processing

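For the named genes called in the crushed ONH, 661 of 670 values under other settings kept their call, 9 fell short of it and 0 reversed. These genes were picked from the same data for their large changes, and the settings refit mostly the same arrays. The kept calls therefore say little about the other genes. The counts of genes at 1 day, 3 days and 1 week were 24, 28 and 6 and stayed within 1.5 times of these except with no fold threshold or with the methods' t-test. With no replicate block the counts were 24, 28 and 6 and those of smaller effects between times were 19 and 5, so the pairing changed no count by more than 1.5 times. With no fold threshold 37 genes were higher at 1 day, 20 higher and 3 lower at 1 week, 3 higher and 1 lower at 3 weeks, 2 had a larger effect at 3 days than at 1 day, 30 a smaller one at 1 week, 2 a larger and 8 a smaller one at 3 weeks, and 2 differed between contralateral and naïve samples at 3 weeks. The criteria of the study's methods gave 17, 22 and 4 at 1 day, 3 days and 1 week. For the counts of this paragraph the share of all probe sets called the same way was mostly not counted. It was counted only in the main fit and in the fits without a replicate number at every time. The methods' t-test at its own threshold gave 22 higher and 3 lower at 1 week, 5 and 4 at 3 weeks, 3 and 1 at 3 months, and 3, 4, 4 and 4 between contralateral and naïve samples at 1 day, 3 days, 1 week and 3 weeks. After Benjamini-Hochberg adjustment it gave 1 lower at 1 week, 0 at 3 weeks and 3 months, and 0 between contralateral and naïve samples at each time. Smaller effects at 3 weeks than at 1 week numbered 3 with 16 added to each intensity, 2 with quantile normalization and 3 with a shift to a common median. Quantile normalization also gave 1 gene higher at 3 weeks, and the mean of all probe sets of a gene gave 2 with a larger effect at 3 days. When replicates were left out, singly at one time or at all times, the counts ranged from 3 to 20 for smaller effects at 1 week than at 3 days, from 2 to 7 for smaller effects at 3 weeks, from 0 to 2 for larger effects at 3 days, and from 0 to 1 for higher and for lower genes at 3 weeks. The cause was not tested. Single pairs, the photoreceptor covariate and pair 2 of 1 day were settings chosen after seeing the data. Dim probe sets limit Chaf1b, Tyms, Orc1 and, at 1 day, Tk1, whose contralateral values lie near the floor.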
